A study of Mus musculus with 16 samples.

Results

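Sirtuins and NAD glycohydrolases are enzymes that split NAD, and 10 of their genes were followed across mouse hearts. The genes were taken by symbol, as the rows named Sirt1, Sirt2, Sirt3, Sirt4, Sirt5, Sirt6, Sirt7, Cd38, Bst1 and Sarm1, which makes 7 sirtuins and 3 glycohydrolases among 24371 genes in the deposited table. All 16 hearts came from mice in which heart failure of the preserved ejection fraction type (HFpEF) had been induced, made by feeding fat-rich chow and giving L-NAME, which blocks nitric oxide synthesis, for 12 weeks. The 4 groups of 4 hearts were Gpr91 fl/fl mice without succinate, Gpr91 fl/fl mice given succinate, Myh6Cre Gpr91 fl/fl mice without succinate, and Myh6Cre Gpr91 fl/fl mice given succinate. They are called floxed, floxed succinate, Cre and Cre succinate hearts here, after their labels. Gpr91 is the succinate receptor, and the Myh6 promoter drives Cre in cardiomyocytes, so that both genotypes carry the floxed alleles and other cell types of the heart keep the receptor. No group without the HFpEF regimen and no group with Cre alone was analysed here. The age and sex of the mice, and the dose and route of succinate, are not given in the sources used here.

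Sirtuins remove acyl groups from lysines and use up 1 molecule of NAD for each group removed, releasing nicotinamide. Sirt3, Sirt4 and Sirt5 act in mitochondria, Sirt1, Sirt6 and Sirt7 mainly in the nucleus, and Sirt2 mainly in the cytosol. Cd38 and its paralogue Bst1 (CD157) are surface enzymes that hydrolyse or cyclise NAD, and Sarm1 is an NAD hydrolase best known for driving axon degeneration. In the heart, the mitochondrial sirtuins are studied as controls of fuel oxidation, and Cd38 as a drain on NAD.

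The libraries held 27835235 to 34700996 counts each and detected 18038 to 19130 genes. The limit that a count of 0 allows, 3 counts, came to 0.0865 to 0.108 CPM (counts scaled to library size). The tissue label was checked: the cardiac myosin gene Myh6 had 389527 to 870604 counts, while the atrial gene Sln was at 0 in 11 of 16 libraries. Of the other atrial markers, Myl7 had 0 to 11 counts, Myl4 21 to 86 and Nppa 1970 to 60375. Little atrial transcript apart from Nppa was thus seen, and whether atria were part of the tissue was not tested. The receptor gene itself, Sucnr1 (Gpr91), was too low to check the deletion, with 0 to 4 counts in floxed, 0 to 7 in floxed succinate, 2 to 21 in Cre and 2 to 13 in Cre succinate hearts. These counts showed no loss in the hearts labelled Cre, so the genotype rests on the labels. The RNA came from heart tissue of mixed cell types, where fewer cells of a type and less RNA per cell cannot be told apart.

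The 10 genes differed widely in level per length. On the deposited FPKM scale, the order of mean levels over 16 hearts was Sirt2 at 32.9 (range 29.5 to 36.0), Sirt3 at 19.4 (15.4 to 24.8), Sirt5 at 7.60 (6.18 to 9.0), Sirt7 at 6.50 (5.76 to 7.77), Cd38 at 5.18 (4.09 to 6.80), Sirt1 at 3.62 (2.85 to 4.62), Sirt4 at 3.24 (2.73 to 3.81), Sirt6 at 1.79 (1.35 to 2.25), Bst1 at 0.419 (0.138 to 0.754) and Sarm1 at 0.0448 (0.0116 to 0.134). On this scale cytosolic Sirt2 and mitochondrial Sirt3 were thus the most abundant sirtuin transcripts, and their ranges did not overlap with each other or with Sirt5. The place of Sirt3 above Sirt5 depends on the gene lengths implied by the deposited FPKM, 1601 bases for Sirt3 and 3580 for Sirt5. Their raw counts overlapped, at 701 to 1232 and 664 to 1031. The ranges of Sirt5 and Sirt7, of Sirt7 and Cd38, of Cd38 and Sirt1, and of Sirt1 and Sirt4 overlapped, so those neighbours were not separated over all hearts. Within a heart, Sirt5 was above Sirt7 in 11 of 16, Sirt7 above Cd38 in 13 of 16, Cd38 above Sirt1 in 15 of 16, and Sirt1 above Sirt4 in 12 of 16. Cd38 was the main glycohydrolase transcript in every heart, at 83.3% to 96.0% of the 3 summed FPKM.

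**Figure D1:**
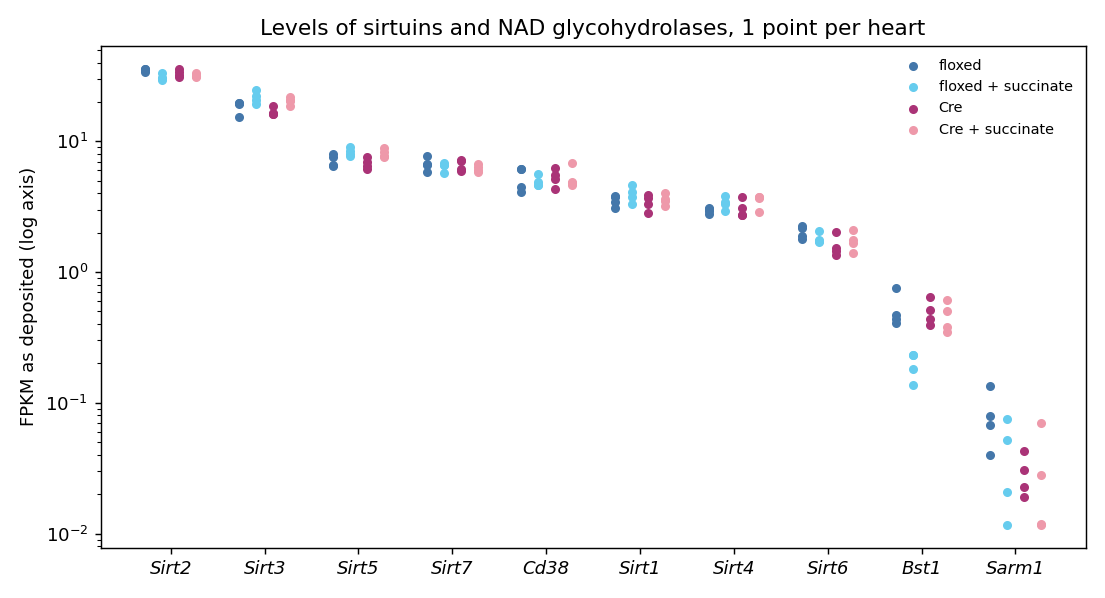
Deposited FPKM (log axis) of the 10 genes, 1 point per heart, coloured by group and ordered by the mean over 16 hearts. Sirt2 lies highest, at 29.5 to 36.0 FPKM, Sarm1 lowest, at 0.0116 to 0.134 FPKM, and the 4 floxed succinate points of Bst1 lie below the points of the other groups.

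Within one gene, values are given below as CPM scaled by TMM factors, which correct for library composition. Differences are log2 differences with their standard error from edgeR's quasi-likelihood test, with p-values adjusted by Benjamini-Hochberg over 14607 tested genes and a threshold of 0.05. All 10 genes passed the filter on low counts. The labels do not say that the hearts of a group came from separate animals, and p-values then refer only to the spread among these libraries, which may be technical. Succinate comparisons in the floxed and in the Cre genotype share no hearts, whereas the average over both genotypes uses all 16.

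Transcripts of the 3 mitochondrial sirtuins were higher in hearts given succinate, by about the same amount in each genotype, and passed the test over both genotypes. The glycohydrolase Bst1 was lower with succinate in floxed hearts. Sirt1, Sirt2, Sirt6, Sirt7, Cd38 and Sarm1 did not pass in any of the 7 comparisons. Averaged over both genotypes, 3 of the 10 genes rose and 1 fell, where 19% of all tested genes passed, 10.6% as higher and 8.45% as lower. The same 4 genes were those with an unadjusted p under 0.05, beside 32.9% of all genes. The median log2 difference of the 10 genes was 0.01, beside 0.01 for all tested genes.

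Sirt3 encodes the main deacetylase of the mitochondrial matrix, whose targets include enzymes of fatty acid oxidation and the superoxide dismutase Sod2. Its TMM-scaled CPM were 24.6, 30.2, 31.2 and 32.1 in floxed hearts and 34.4, 35.5, 40.1 and 32.9 in floxed succinate hearts. They were 23.8, 26.3, 29.6 and 25.9 in Cre hearts and 32.5, 34.5, 28.4 and 35.8 in Cre succinate hearts. The floxed groups did not overlap, and the Cre groups overlapped through 1 Cre succinate heart at 28.4. Of the 8 hearts given succinate, 7 lay above the highest of the 8 without it. Over both genotypes Sirt3 rose by 0.29 ± 0.07 (1.23-fold, edgeR adjusted p = 0.00815), from 28.0 ± 3.18 to 34.3 ± 3.34 CPM (SD, n = 8 each). Taken alone, the difference was 0.28 ± 0.10 in floxed hearts (adjusted p = 0.0780) and 0.31 ± 0.10 in Cre hearts (adjusted p = 0.149), and neither passed. The 2 effects differed by 0.04, with a 95% interval of -0.26 to 0.34.

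Sirt5 encodes the matrix enzyme that removes succinyl, malonyl and glutaryl groups from lysines. Its values were 23.3, 28.1, 23.3 and 27.4 CPM in floxed hearts and 29.9, 32.4, 28.0 and 32.0 CPM in floxed succinate hearts. In Cre hearts they were 22.7, 22.3, 27.3 and 22.8 CPM, and in Cre succinate hearts 31.8, 28.9, 26.0 and 30.5 CPM. In each genotype the groups overlapped by a single succinate heart, and 6 of 8 hearts given succinate lay above every heart without it. Over both genotypes Sirt5 rose by 0.28 ± 0.07 (1.22-fold, edgeR adjusted p = 0.00709), from 24.6 ± 2.45 to 29.9 ± 2.22 CPM (SD, n = 8 each). The difference was 0.26 ± 0.09 in floxed hearts (adjusted p = 0.0760) and 0.30 ± 0.09 in Cre hearts (adjusted p = 0.136). Their difference was 0.04, with an interval of -0.24 to 0.32.

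Sirt4 encodes a matrix enzyme with lipoamidase and ADP-ribosyltransferase activity that restrains glutamate dehydrogenase. Its values were 9.50, 9.72, 10.3 and 10.8 CPM in floxed hearts and 12.3, 10.1, 11.6 and 13.8 CPM in floxed succinate hearts. Cre hearts gave 11.7, 9.44, 10.6 and 9.30 CPM, and Cre succinate hearts 12.9, 13.1, 12.3 and 10.1 CPM. The groups overlapped in both genotypes, and 5 of 8 hearts given succinate exceeded every heart without it. Over both genotypes Sirt4 rose by 0.24 ± 0.08 (1.18-fold, edgeR adjusted p = 0.0452), from 10.2 ± 0.844 to 12.0 ± 1.34 CPM (SD, n = 8 each). Taken alone, the difference was 0.25 ± 0.12 in floxed hearts (adjusted p = 0.171) and 0.24 ± 0.11 in Cre hearts (adjusted p = 0.363), and neither passed. The 2 effects differed by -0.01, with a 95% interval of -0.35 to 0.33. The rise of Sirt4 over both genotypes was the least firm of the 3. It passed in 4 of the 16 fits that left out 1 heart, where the edgeR adjusted p ran from 0.0246 to 0.111. RLE size factors in place of TMM gave 0.0531. Sirt3 and Sirt5 passed in all 16 of those fits.

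The mitochondrial share of sirtuin transcript rests on these values and on those of the other 4 sirtuins, of which Sirt2 is the largest. Sirt3, Sirt4 and Sirt5 together made up 37.7 ± 2.32% of the summed FPKM of the 7 sirtuins in floxed hearts, 43.6 ± 1.09% in floxed succinate, 37.3 ± 2.71% in Cre and 42.4 ± 1.25% in Cre succinate hearts (SD, n = 4 each). The ranges with and without succinate did not overlap in either genotype, ending at 40.1% and starting at 42.3% in floxed hearts, and ending at 41.1% and starting at 41.3% in Cre hearts. The ratio of Sirt3 to Sirt2 FPKM was 0.529 in floxed, 0.702 in floxed succinate, 0.509 in Cre and 0.636 in Cre succinate hearts. Sirt2 itself was at 35.1, 30.9, 33.3 and 32.0 FPKM in these groups in turn, so both genes enter the ratio. The shares and ratios were not tested. The summed FPKM of all 7 sirtuins stayed between 70.9 and 81.2 in the 16 hearts.

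Some cardiomyocyte transcripts were also at other levels in the hearts given succinate. The summed CPM of 6 cardiomyocyte markers was 37572 ± 2682 in floxed, 48158 ± 2981 in floxed succinate, 36465 ± 3044 in Cre and 46110 ± 4200 in Cre succinate hearts (SD, n = 4 each), with no overlap between treated and untreated hearts of a genotype. Of the 6 markers, Myh6 and Ryr2 rose over both genotypes, beside 10.6% of all tested genes. The other 4, Tnnt2, Actc1, Tnni3 and Pln, did not pass. In floxed hearts these 4 were at 0.05, -0.03, 0.18 and 0.09 with succinate, against 0.69 for Myh6. In Cre hearts all 6 markers had positive differences, with a median of 0.20, and 1 passed, beside 0.917% of all tested genes. Over both genotypes all 6 were positive, with a median of 0.158. Myh6 had the most counts of the 6, at 389527 to 870604 per library, and so weighs most in the sum. Whether the difference in the marker sum bears on the levels of the mitochondrial sirtuins was not tested.

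**Figure D2:**
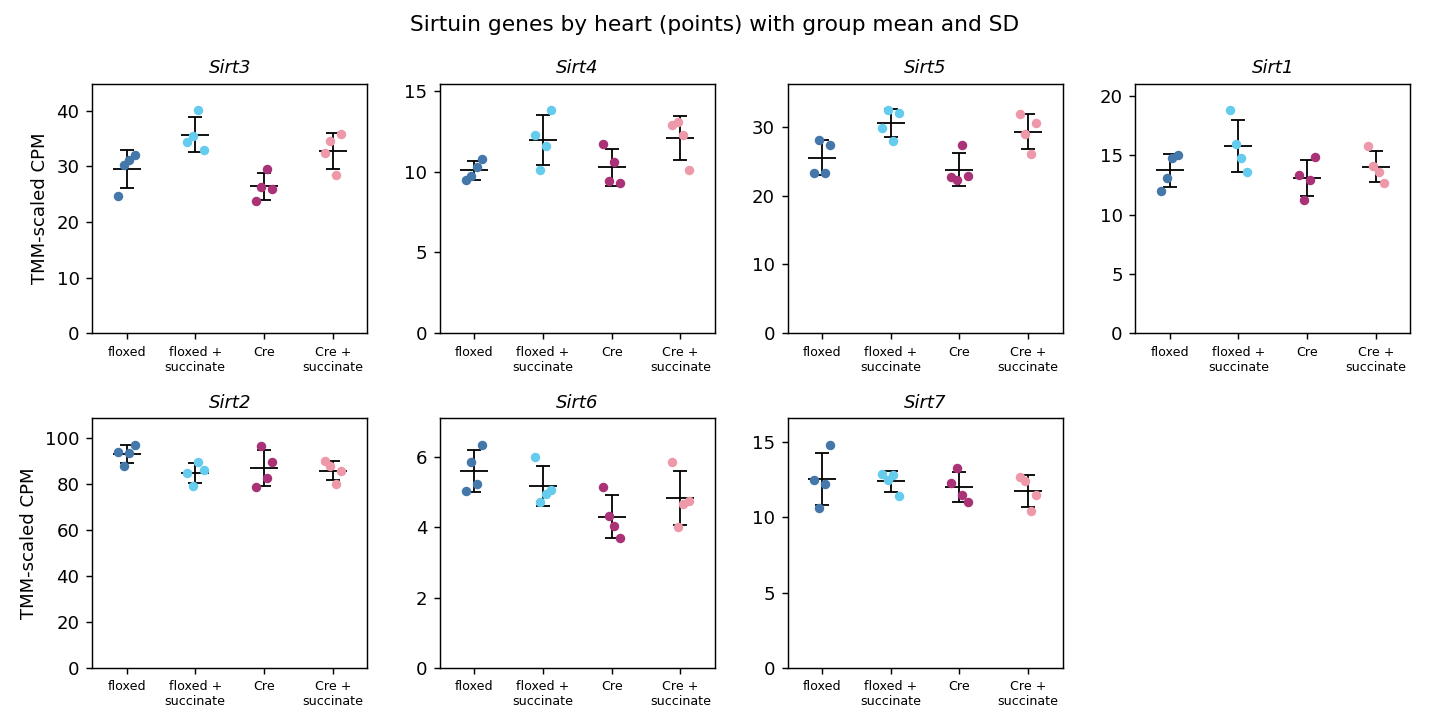
TMM-scaled CPM of the 7 sirtuin genes, 1 point per heart, with the group mean and SD (n = 4). In the panels of Sirt3, Sirt4 and Sirt5 the succinate group means (35.7 and 32.8, 12.0 and 12.1, 30.6 and 29.3 CPM in floxed and Cre hearts) lie above those without succinate (29.5 and 26.4, 10.1 and 10.3, 25.5 and 23.8 CPM).

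Sirt3 shares sequence with its neighbours. In the GRCm38 annotation 5.7% of its exon bases overlap Psmd13, a proteasome gene, and 7.0% overlap Ric8a, both on the opposite strand, and whether the counting used strand is not stated in the sources used here. Over both genotypes Psmd13 differed with succinate by -0.08 ± 0.05 (edgeR adjusted p = 0.272) and Ric8a by 0.06 ± 0.06 (adjusted p = 0.535), and neither passed. The part of reads from shared bases in the level of Sirt3 was not tested. Sirt4 and Sirt5 overlap no other annotated exon.

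The promoters of the 3 mitochondrial sirtuins are shown because these genes shared the direction of their difference with succinate. They run from 250 bases before to 50 after the start of transcription, 5′ to 3′ on the gene's strand, and were taken from RefSeq with build GRCm38.p6. Such sequences were found for 9 of the 10 genes, all but Bst1. Capitals mark the one match among 5 motifs searched on both strands, the ETS site CCGGAAGT, seen here as its reverse complement.
Sirt3, chr7:140882260-140882559, minus strand: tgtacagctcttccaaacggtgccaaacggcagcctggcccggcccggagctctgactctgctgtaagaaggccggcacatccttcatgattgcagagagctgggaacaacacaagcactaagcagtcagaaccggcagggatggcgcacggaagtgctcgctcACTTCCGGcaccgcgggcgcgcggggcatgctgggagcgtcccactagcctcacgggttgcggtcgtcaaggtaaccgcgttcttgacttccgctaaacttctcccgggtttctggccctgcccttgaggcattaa
Sirt4, chr5:115484248-115484547, minus strand: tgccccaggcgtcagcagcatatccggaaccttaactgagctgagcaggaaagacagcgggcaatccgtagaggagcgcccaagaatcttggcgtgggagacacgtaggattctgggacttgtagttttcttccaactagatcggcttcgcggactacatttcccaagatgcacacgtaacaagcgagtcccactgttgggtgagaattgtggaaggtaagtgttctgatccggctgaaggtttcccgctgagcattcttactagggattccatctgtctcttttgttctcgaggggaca
Sirt5, chr13:43365285-43365584, plus strand: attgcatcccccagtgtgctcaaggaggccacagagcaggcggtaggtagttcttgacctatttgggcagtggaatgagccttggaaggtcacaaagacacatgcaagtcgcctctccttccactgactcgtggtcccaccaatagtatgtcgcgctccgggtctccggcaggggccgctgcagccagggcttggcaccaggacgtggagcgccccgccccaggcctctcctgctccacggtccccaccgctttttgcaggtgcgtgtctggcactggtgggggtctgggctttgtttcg
The Sirt3 match lies 86 to 79 bases before the start, and this motif occurs in 3.89% of 32851 promoters of the same length. RefSeq also lists a second Sirt3 start, whose promoter held none of the motifs. The other motifs searched, with no match in these 3 sequences, were the estrogen-related receptor element TCAAGGTCA (0.423% of promoters), the NRF1 site, which is GCGCA followed by its reverse complement (0.971%), the cAMP response element TGACGTCA (1.79%) and the PPAR direct repeat, which is AGGTCA, any base and AGGTCA again (0.0396%). No motif was shared by all 3. Among the other sirtuins, Sirt6 held 1 NRF1 and 1 ETS match. GC content was 61.0% for Sirt3, 52.0% for Sirt4 and 62.0% for Sirt5, beside a median of 52.7% over all promoters. A match is a description of letters and not evidence of binding.

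The 4 nuclear and cytosolic sirtuins did not pass for succinate or genotype. Sirt1, a nuclear deacetylase of Foxo and PGC-1 proteins, was at 12.0, 13.1, 14.8 and 15.0 CPM in floxed and 18.8, 16, 14.8 and 13.6 CPM in floxed succinate hearts. Cre hearts had 13.3, 11.2, 12.9 and 14.9 CPM and Cre succinate hearts 15.8, 14.1, 13.6 and 12.7 CPM. The groups overlapped throughout, and the difference with succinate over both genotypes was 0.15 ± 0.08 (edgeR adjusted p = 0.211, 95% interval -0.02 to 0.33). Sirt2, the most abundant of the family and a tubulin deacetylase, had group means of 93.1 ± 3.78 CPM in floxed, 84.9 ± 4.34 in floxed succinate, 87.0 ± 7.88 in Cre and 85.9 ± 4.27 in Cre succinate hearts. Its difference with succinate over both genotypes was -0.08 ± 0.05 (adjusted p = 0.351, interval -0.19 to 0.04). The Sirt2 intervals were the narrowest of the 10 genes, and its coefficient of variation within groups was 4.06% to 9.06%.

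Sirt7, a nucleolar deacetylase linked to ribosomal RNA transcription, ranged from 10.4 to 14.8 CPM with group means of 12.5 ± 1.72, 12.4 ± 0.708, 12.0 ± 1.02 and 11.7 ± 1.01 CPM in floxed, floxed succinate, Cre and Cre succinate hearts. Its difference with succinate over both genotypes was -0.02, with an interval of -0.18 to 0.14. Sirt6, a chromatin deacetylase, was at 5.02, 5.86, 5.22 and 6.34 CPM in floxed hearts and 5.15, 4.32, 4.05 and 3.69 CPM in Cre hearts. With succinate it was at 6.0, 4.72, 4.95 and 5.05 CPM in floxed and 5.87, 4.02, 4.66 and 4.76 CPM in Cre hearts. The groups without succinate overlapped through the first Cre heart. Sirt6 differed between genotypes by -0.38 ± 0.15 without succinate (edgeR adjusted p = 0.489) and by -0.24 ± 0.11 over both treatments (adjusted p = 0.306), and did not pass in either.

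Among the glycohydrolases, Bst1 alone passed a test. BST1 is a surface ADP-ribosyl cyclase known from bone marrow stroma and myeloid cells. Its raw counts were 27, 35, 51 and 30 in floxed hearts, 14, 16, 10 and 15 in floxed succinate hearts, 52, 29, 38 and 31 in Cre hearts and 25, 39, 47 and 31 in Cre succinate hearts. Scaled, these were 0.947, 1.07, 1.74 and 1.04 CPM in floxed hearts, against 0.440, 0.543, 0.326 and 0.570 CPM in floxed succinate hearts. All 4 floxed succinate hearts lay below every heart of the other groups. The Cre groups overlapped, at 1.39, 0.928, 1.2 and 1.0 CPM without and 0.820, 1.21, 1.37 and 0.917 CPM with succinate.

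In floxed hearts Bst1 fell by 1.35 ± 0.30 on the log2 scale with succinate (2.55-fold lower, edgeR adjusted p = 0.00797), from 1.2 ± 0.364 to 0.470 ± 0.111 CPM (SD, n = 4 each). It was the 1 gene of the 10 that passed in this comparison, in which 13.1% of all tested genes passed, 5.64% as lower. The groups did not overlap for 2 of the 10 genes, Bst1 and Sirt3, beside 17.8% of all genes, and 4 of the 10 had an unadjusted p under 0.05, beside 28.4%. The highest floxed heart had 1.74 CPM. Without it the fall was 1.14 (adjusted p = 0.0353), and every fit that left out 1 heart still passed, with adjusted p from 0.00725 to 0.0353. In Cre hearts the difference was -0.07 ± 0.28, with an interval of -0.66 to 0.52, and none of the 10 genes passed there (0.917% of all genes did). At an unadjusted p under 0.05, 2 of the 10 were counted in Cre hearts, Sirt3 and Sirt5, beside 14.1% of all genes, and DESeq2 also called none.

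The difference between the 2 succinate effects was itself tested. For Bst1 it was 1.29 ± 0.41 (Cre minus floxed, interval 0.42 to 2.15), with an edgeR adjusted p of 0.970. No gene of all 14607 passed this test in edgeR (0% called), and 709 genes (4.85%), of the 10 followed here Bst1 alone, had an unadjusted p under 0.05. DESeq2 called 4 genes, with an adjusted p of 0.485 for Bst1. The difference between the genotypes in the response of Bst1 therefore did not pass. Under succinate, Bst1 was higher in Cre than in floxed hearts by 1.2 ± 0.30 without passing in edgeR (adjusted p = 0.0838), and DESeq2 gave an adjusted p of 0.0176. These groups did not overlap, as for 7.5% of all genes. That comparison uses the same floxed succinate hearts as the succinate comparison in floxed hearts. Averaged over both genotypes, Bst1 fell by 0.71 ± 0.21 with succinate (adjusted p = 0.0228), the average of -1.35 in floxed and -0.07 in Cre hearts. Without floxed replicate 3 its adjusted p was 0.0546, and without Cre replicate 1 it was 0.0502.

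**Figure D3:**
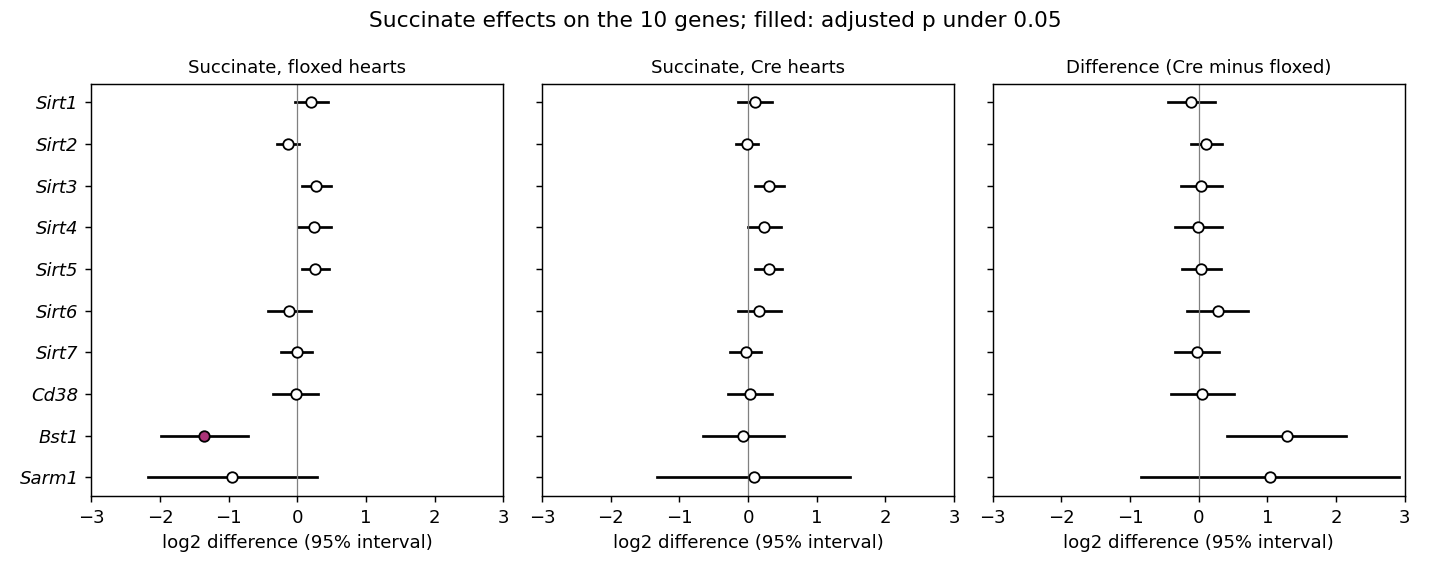
Log2 difference with succinate of the 10 genes in floxed hearts and in Cre hearts, and the difference between the 2 effects, each with its 95% interval. Filled points passed at an adjusted p under 0.05, which holds for Bst1 in floxed hearts (-1.35), and the intervals of Sirt3, Sirt4 and Sirt5 for the difference all include 0.

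Macrophage transcripts were lower in the same hearts. The gene with the highest r with Bst1, over 16 hearts and after subtracting group means, was Lyve1 (r = 0.914). It is a receptor on resident cardiac macrophages and lymphatic endothelium. The 13205 genes compared were tested genes with a plain symbol, which leaves out names such as Rik and Gm numbers. Of these, 12 had r over 0.8 with Bst1. Fcgr1, a macrophage Fc receptor (r = 0.859), and Tm9sf3 (r = 0.841) came next. These correlations are descriptions over hearts that share library and depth, and were chosen as the highest of many. Lyve1 was at 23.3, 24.7, 42.5 and 24.8 CPM in floxed hearts and 12.9, 16.9, 10.4 and 13.3 CPM in floxed succinate hearts. Its Cre values were 24.6, 18.4, 21.8 and 18 CPM without and 16.1, 18.7, 20.7 and 14.1 CPM with succinate. The third floxed heart was thus highest for both Bst1 and Lyve1. Lyve1 fell by 1.11 ± 0.19 with succinate in floxed hearts (edgeR adjusted p = 0.00163), and its difference in Cre hearts was -0.25 ± 0.19 (adjusted p = 0.587). Fcgr1 fell by 0.96 ± 0.24 in floxed hearts (adjusted p = 0.0133) and was at -0.86 ± 0.23 in Cre hearts (adjusted p = 0.0859).

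Of 10 macrophage markers, 6 fell with succinate in floxed hearts and none rose, with 9 negative differences and a median log2 difference of -0.72. In Cre hearts 1 passed, Ccr2, which fell, while all 10 differences were negative, with a median of -0.31. Over both genotypes 7 of the 10 fell, beside 8.45% of all tested genes. For the difference between the 2 effects 0 of the 10 passed, beside 0% of all genes. Of all tested genes 5.64% fell in floxed hearts, and 0.917% passed in either direction in Cre hearts. Their summed level was 341 ± 60.9 CPM in floxed hearts (277 to 421), 224 ± 44.8 in floxed succinate (162 to 266), 344 ± 35.3 in Cre (314 to 395) and 273 ± 57.5 in Cre succinate hearts (194 to 331). The ranges of the sum did not overlap in floxed hearts and overlapped in Cre hearts, and the sum itself was not tested. Bst1 in Cre hearts was at 1.13 ± 0.207 CPM without and 1.08 ± 0.255 CPM with succinate. Of 6 neutrophil markers 3 could be tested, and S100a8 and S100a9 fell in floxed hearts, while Ly6g, a defining neutrophil gene, was at 0 in 15 of 16 libraries. The part of macrophage or neutrophil content in the level of Bst1 was not tested. Bst1 also shares 3.0% of its exon bases with Fbxl5 on the opposite strand. Fbxl5 was at 0.23 ± 0.08 with succinate in floxed hearts (edgeR adjusted p = 0.0583). The part of reads from shared bases in the level of Bst1 was not tested.

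**Figure D4:**
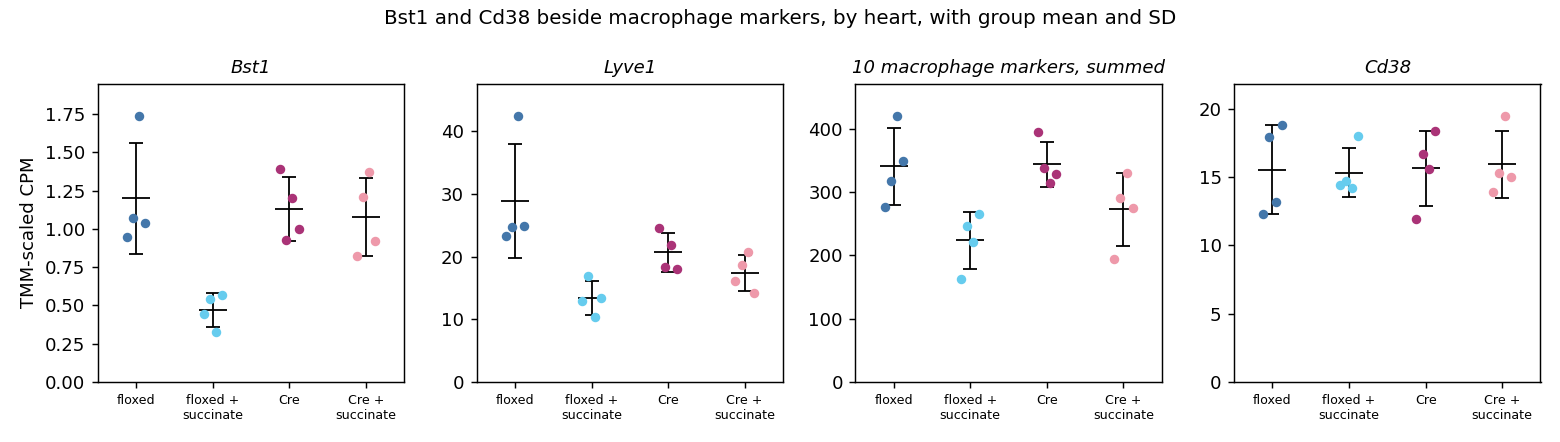
TMM-scaled CPM by heart, with group mean and SD (n = 4), of Bst1, of Lyve1, of 10 macrophage markers summed, and of Cd38. Bst1 has group means of 1.2, 0.470, 1.13 and 1.08 CPM and the macrophage sum 341, 224, 344 and 273 CPM in floxed, floxed succinate, Cre and Cre succinate hearts, while Cd38 lies between 11.9 and 19.5 CPM in all groups.

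Cd38, the main NAD hydrolase of many tissues and the next gene to Bst1 on chromosome 5, did not pass in any comparison. Its values were 12.3, 17.9, 13.2 and 18.8 CPM in floxed, 14.4, 14.7, 14.2 and 18 CPM in floxed succinate, 11.9, 16.7, 15.6 and 18.4 CPM in Cre and 13.9, 15.3, 19.5 and 15.0 CPM in Cre succinate hearts. All groups overlapped. With succinate over both genotypes the difference was 0.00 ± 0.11, with an interval of -0.23 to 0.23. The deposited FPKM of Cd38 was 10.7 times that of Bst1 in floxed, 26.2 times in floxed succinate, 11.2 times in Cre and 11.7 times in Cre succinate hearts, as means of 4 ratios. Over the 16 hearts, after subtracting group means, the levels of these neighbours had r = 0.000782. The genes most like Cd38 by the same measure were H1f0 (r = 0.910), Cdc42se2 (r = 0.878) and Sft2d3 (r = 0.864).

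Sarm1 was near the limit of detection. It had 10, 13, 20 and 6 raw counts in floxed, 2, 8, 12 and 3 in floxed succinate, 4, 7, 5 and 3 in Cre and 11, 2, 2 and 5 in Cre succinate hearts. Counts at or under 3 occurred in every group but the floxed one. It differed between genotypes by -1.47 ± 0.61 without succinate (edgeR adjusted p = 0.504) and by -0.95 ± 0.44 over both treatments (adjusted p = 0.341), and did not pass. At these counts the 95% interval for succinate in Cre hearts ran from -1.32 to 1.49, which includes differences of 2-fold in either direction.

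None of the 10 genes passed for genotype in edgeR. Without succinate 0.11% of all tested genes passed, with succinate 0.691%, and over both treatments 1.88%. At an unadjusted p under 0.05 there were 2 of the 10 without succinate, Sirt6 and Sarm1, beside 8.75% of all genes. With succinate there was 1, Bst1, beside 11.1%, and over both treatments 3, Sirt6, Bst1 and Sarm1, beside 14.1%. DESeq2 called Bst1 with succinate and none in the other comparisons by genotype. The medians of the 10 genes were -0.09, -0.07 and -0.08 in these comparisons, beside 0.00, -0.01 and 0.00 for all genes.

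The sirtuins varied with few common swings between hearts. After subtracting group means, the mitochondrial Sirt3 and Sirt5 had r = 0.436 over 16 hearts, Sirt3 and Sirt4 -0.166, and Sirt4 and Sirt5 0.0533. The highest value among sirtuin pairs was 0.531, for Sirt2 and Sirt7. Over the 16 hearts as they stand, with the succinate groups included, Sirt3 and Sirt5 had r = 0.785. The genes most like Sirt3 within groups were Smap2 (0.851), Gzmm (0.825) and Adsl (0.791), and those most like Sirt5 were Nkapl (0.887), Ccl11 (0.851) and Oxa1l (0.814). For Sirt4 they were Map2k3os (0.851), Pcdhb13 (0.842) and Zfp53 (0.821).

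Other genes that use or handle NAD were counted from lists. Of 14 PARP and tankyrase genes, nuclear and cytosolic enzymes that spend NAD on ADP-ribosylation, 1 rose with succinate in floxed hearts, Parp8 by 0.41 ± 0.10 (edgeR adjusted p = 0.0143), beside 13.1% of all tested genes that passed there. In Cre hearts edgeR called none, 0 had an unadjusted p under 0.05 (14.1% of all genes did), and Parp8 was at 0.07 ± 0.10 and Parp1, the main nuclear PARP, at 0.13 ± 0.10. The PARP medians were 0.03 in floxed and -0.01 in Cre hearts.

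Of 10 genes of extracellular NAD and nucleotide handling, 2 rose in each genotype and none fell, beside 13.1% of all genes that passed in floxed and 0.917% in Cre hearts. Both encode ecto-ADP-ribosyltransferases, surface proteins of the family that attaches ADP-ribose from extracellular NAD. Art4 rose by 0.74 ± 0.11 in floxed hearts (adjusted p = 3.8e-04) and by 0.72 ± 0.11 in Cre hearts (adjusted p = 0.00593). Art1, the form found in striated muscle, rose by 0.64 ± 0.10 in floxed hearts (adjusted p = 5.6e-04) and by 0.47 ± 0.10 in Cre hearts (adjusted p = 0.0278). Over both genotypes 3 of the 10 rose, beside 10.6% of all genes. The third was Art3, named after its value was seen, at 0.38 ± 0.09 (adjusted p = 0.00728). Art1 was also lower in Cre than in floxed hearts over both treatments, by -0.31 ± 0.07 (adjusted p = 0.0225).

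Of 10 genes of nicotinamide and cyclic ADP-ribose steps 9 could be tested, Nmnat2 being under the filter. In floxed hearts 2 rose with succinate and none fell, beside 13.1% of all genes that passed: Aox1, an oxidase of methylated nicotinamide, by 0.69 ± 0.17 (adjusted p = 0.0124), and Ryr2, the sarcoplasmic calcium channel that cyclic ADP-ribose can modulate, by 0.72 ± 0.20 (adjusted p = 0.0236). In Cre hearts edgeR called none and 1 had an unadjusted p under 0.05 (14.1% of all genes did), Ryr2, which was at 0.48 ± 0.20 (adjusted p = 0.272). Over both genotypes 3 of the 9 passed, beside 19% of all genes. Trpm2, an ADP-ribose-gated channel named after its value was seen, was among them and fell by 1.03 ± 0.30 (edgeR adjusted p = 0.0242). Its level was low, at 0.752 CPM without and 0.373 CPM with succinate (means, n = 8 each), beside 1.17 and 0.775 CPM for Bst1. Nampt, which recycles the nicotinamide that sirtuins release, was at 0.24 ± 0.11 in floxed hearts (adjusted p = 0.157) and 0.05 ± 0.11 in Cre hearts (adjusted p = 0.892).

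Of 16 genes for sirtuin substrates and partners 15 could be tested, Cps1 being under the filter. In floxed hearts 4 rose and 1 fell with succinate, beside 13.1% of all genes that passed, with a list median of 0.28. Acss1, the mitochondrial acetyl-CoA synthetase that Sirt3 deacetylates, rose by 0.58 ± 0.12 (adjusted p = 0.00482), and Tuba1a, an alpha-tubulin of the type that Sirt2 deacetylates, fell by 0.77 ± 0.15 (adjusted p = 0.00291). In Cre hearts edgeR called none of the 15, and 5 had an unadjusted p under 0.05, beside 14.1% of all genes. There Sod2 was at 0.29 ± 0.09 (adjusted p = 0.109) and Acss1 at 0.39 ± 0.12 (adjusted p = 0.127). Over both genotypes 8 of the 15 rose and 1 fell, beside 10.6% and 8.45% of all genes, with Sod2 up by 0.31 ± 0.06 (adjusted p = 0.00177). Between genotypes over both treatments 2 of the 15 were lower in Cre hearts and none higher, beside 1.88% of all genes that passed. Idh2, the mitochondrial isocitrate dehydrogenase that Sirt3 deacetylates, was among them, at -0.41 ± 0.08 (adjusted p = 0.00874). Transcript levels of these genes carry no reading of acylation or of enzyme activity.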

How the data were processed

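Heart RNA of 16 samples in 4 groups was sequenced from VAHTS Universal V6 libraries, per the labels' protocols. The submitters' processing notes list HISAT2, HTSeq, fastp, DESeq2, R 3.2.0 and build GRCm39; their roles, settings and strandedness are not given in the sources used here. The authors deposited raw counts per gene, which were tested here, and FPKM, which were used here to compare levels between genes; each deposited FPKM is the count scaled by library total and a single length per gene.

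The counts were fitted with edgeR 4.0.16 (R 4.3.3) as 4 group means in 1 robust quasi-likelihood fit with TMM factors (0.946 to 1.09), on 14607 genes kept by filterByExpr (minimum count 10), with 12 residual degrees of freedom. P-values were adjusted by Benjamini-Hochberg. Standard errors are the log2 difference divided by the root of F. Alternatives were DESeq2 1.42.0, RLE factors, other filters, a replicate block, limma 3.58.1 on log2(FPKM + 1) or log2(FPKM + 0.1), only the groups compared, and leaving out each heart. The fits were tested on simulated data. Overlaps came from an annotation of GRCm38, not the files' build, and promoters from RefSeq GRCm38.p6.

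Intervals are 95%, and floors of 3 counts cover counting error only. No 2 libraries of a group agreed within sampling noise. The members, gene lists, markers and comparisons were chosen with earlier results of these data known. Named genes are the 10 members, the 3 genes most like each, and up to 2 genes of smallest p per list and comparison. Likeness is the highest within-group Pearson r among tested genes with a plain symbol. The text names the likeness genes of the mitochondrial sirtuins, Bst1 and Cd38. One result that the rule would name is not reported here.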

Additional observations from a re-analysis of the deposited data

Results flagged for a closer look

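Among 40 groups of 4 hearts, 3 held a heart whose distance from the nearest of the others was a larger share of the group's range than Dixon's 95% critical value for 4 values; chance gives about 1 in 20 groups. Sirt5 was at 27.3 CPM in Cre replicate 3, where the next heart had 22.8 (share 0.900). Cd38 was at 18 CPM in floxed succinate replicate 4, where the next had 14.7 (share 0.868). Bst1 was at 1.74 CPM in floxed replicate 3, where the next had 1.07 (share 0.845); the same heart had the highest Lyve1 level of its group, at 42.5 CPM beside 24.8, and without it Bst1 still fell with succinate by 1.14 on the log2 scale in floxed hearts (edgeR adjusted p = 0.0353).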

How the results depend on the processing

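Of 1696 single-gene values for the 10 members under the alternatives, 1586 kept their sign and their side of the threshold, 21 no longer passed, 1 newly passed and none that passed changed sign; 88 values that passed neither way changed sign, the largest being 0.44 in the main fit and 0.68 under an alternative. The fall of Bst1 with succinate in floxed hearts passed in every fit that tested it, with adjusted p = 0.0155 under the replicate block, and limma on genes with a mean of at least 1 FPKM left Bst1 out, so that 0 members passed there. Sirt3 and Sirt5 over both genotypes passed in all 8 alternatives other than leaving out a heart, with adjusted p of 0.0029 to 0.0376 and 0.0018 to 0.0355. Sirt4 did not pass without a filter (0.0853), under the replicate block (0.0560) or with limma on log2(FPKM + 1) (0.196), log2(FPKM + 0.1) (0.188) or a mean of at least 1 FPKM (0.108), and Bst1 over both genotypes did not pass with limma on log2(FPKM + 1) (0.0586), so 2 members passed there and 2 with the FPKM minimum. DESeq2 added 1 member, Bst1, for genotype with succinate. Same-numbered hearts had correlations of -0.121 to 0.32, the highest between replicate 1 of floxed succinate and of Cre succinate hearts. Whether such hearts share more than a number was not tested. Under the replicate block the counts over all genes stayed within 1.5 times.

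Over all genes, limma on log2(FPKM + 1), on log2(FPKM + 0.1) and with the FPKM minimum in turn called 954, 1122 and 1600 for succinate in floxed hearts (1917 in edgeR), 44, 38 and 108 in Cre hearts (134), 1798, 1980 and 2344 over both genotypes (2781), 41, 52 and 51 for genotype with succinate (101), 121, 159 and 176 over both treatments (274), and 2, 1 and 0 for the interaction (0); for genotype without succinate the FPKM minimum gave 7 (16). With the FPKM minimum the calls split into 693 higher and 907 lower in floxed hearts (1093 and 824 in edgeR), and 987 and 1357 over both genotypes (1547 and 1234). DESeq2 called 485 for succinate in Cre hearts, 90 and 327 for genotype without and with succinate, 603 over both treatments and 4 for the interaction. Using only the groups compared gave 46 in Cre hearts and 3 for genotype without succinate. Leaving out 1 heart gave 1018 to 2106 for succinate in floxed hearts, 22 to 183 in Cre hearts, 2015 to 2899 over both genotypes, 4 to 23, 44 to 134 and 156 to 308 for genotype without, with and over both treatments, and 0 to 0 for the interaction; members passing were 1 to 1 in floxed hearts, 2 to 4 over both genotypes and 0 to 0 elsewhere, the 2 being without floxed replicate 3. The log2 ratio of mean Sirt2 levels, floxed succinate over floxed, was -0.18 in FPKM and -0.13 in TMM-scaled CPM. The cause of these differences was not tested. Depth limits Sarm1 (2 to 20 counts) and Bst1 (10 to 52 counts).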
